A study of Mus musculus with 8 samples.

Results

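Hspa1b and Lta were followed with 1 array probe each, chosen because DBA/1 brainstems read higher than C57BL/6 brainstems on these same 8 arrays, so that 2 of the 60930 probes of the array are described here. Both genes lie on chromosome 17, in the class III region of the major histocompatibility complex (MHC). Since the strain difference chose the probes, that difference is given below as a description without a test, and the variation among mice of a strain is tested.

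The study compared brainstems of DBA/1 mice, which are prone to seizures evoked by sound, with those of C57BL/6 mice as controls. Each strain had 4 male mice, aged 5 weeks and housed without any test for audiogenic seizures, and each array held the RNA of 1 mouse. The mice were of the substrains DBA/1JNCrlj and C57BL/6JNifdc, bought from one supplier, and the whole brainstem was taken under isoflurane anaesthesia. The labels name no treatment or transgene. RNA depleted of rRNA was labelled with random primers and hybridized to a one-color Arraystar mouse lncRNA and mRNA array. As an inbred strain differs from another at many loci, the strain stands for the whole genome and not for 1 gene. Mice are named here by strain and by a replicate number from 1 to 4 in the order of the samples. The sample titles carry other numbers, and the labels do not say that a shared number links a DBA/1 mouse with a C57BL/6 mouse.

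Hspa1b encodes an inducible cytosolic chaperone of the Hsp70 family, which holds and refolds damaged proteins and is switched on by heat shock factor 1 when proteins misfold. Lta encodes lymphotoxin alpha, a secreted cytokine of the tumor necrosis factor (TNF) family made mainly by lymphocytes. It signals as a homotrimer through the TNF receptors and, together with the lymphotoxin beta encoded by Ltb, through the lymphotoxin beta receptor. The class III region between the class II and class I genes is dense in genes of immune and housekeeping roles, and C57BL/6 and DBA/1 carry different MHC haplotypes, named b and q.

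In the RefSeq annotation of GRCm38, Hspa1b lies at chr17:34956429-34959238 and Lta at chr17:35203165-35205578, both on the minus strand. A stretch of 244 kb with 28 protein-coding genes separates them. Hspa1a, the nearly identical sister gene of Hspa1b, lies 10.1 kb from it, and Tnf and Ltb lie 1.16 kb and 6.86 kb from Lta. The probes measured the transcripts NM_010478 and NM_010735. Their identity rests on 60 bases each, of which the first 30 are shown, 5′ to 3′, to tell which transcripts carry the values:

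Hspa1b probe: aggttaaagatggtgtatccttcctgcata

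Lta probe: agagaattagatgtgggtgaccaaggggtt

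Whether the Hspa1b probe also binds transcripts of Hspa1a was not tested. The region before the start of Hspa1b is shown because it holds the elements through which this gene is known to be induced. These are the 250 bases before the RefSeq start on the minus strand of GRCm38.p6, chr17:34959239-34959488, with the pair of heat shock half-sites (GAANNTTC or TTCNNGAA) and a CCAAT box on the opposite strand (ATTGG) in capitals:

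Hspa1b: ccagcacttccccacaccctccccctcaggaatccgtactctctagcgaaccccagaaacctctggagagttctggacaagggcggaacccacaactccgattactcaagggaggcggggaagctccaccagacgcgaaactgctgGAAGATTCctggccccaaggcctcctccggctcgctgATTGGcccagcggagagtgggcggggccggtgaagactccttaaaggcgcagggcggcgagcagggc

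The heat shock pair stood 104 to 97 bases before the start and the CCAAT box 67 to 63 bases before it, without overlap. Searched on both strands, the pair occurred in 12.8% of the 32817 RefSeq promoter windows of that length, and CCAAT in 33.8%. GGGCGG occurred at 3 positions before Hspa1b, and 32.7% of the windows held it. The NF-kB consensus motif matched once, and 7.25% of the windows held it. The same window before Hspa1a was identical at 247 of 250 bases. The substitutions, with the Hspa1b base first and positions counted from the 5′ end of the window, were T44C, C47T and G249T, so that none lay in the capitals.

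For Lta the window was taken before position 35205351, the 5′ end of NM_010735, whereas the gene record reaches to 35205578, so most of this window lies inside the gene record. It held none of these 4 motifs and 1 match to TATAAA, a motif found in 12.4% of the windows. The match stood 167 to 162 bases before the 5′ end of NM_010735 and is shown in capitals within 30 bases of the minus strand, chr17:35205501-35205530:

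Lta: gtgcagaagtgaTATAAAccatcactcttc

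A match describes these letters and not a bound factor, and missing letters in a window leave a factor's role unmeasured. The letters are those of the reference genome, and differences between the strains in the windows or under the probes were not looked at.

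The arrays shared 1 slide, on which each strain filled a row of its own, so that row and strain cannot be told apart. Between 29301 and 36162 probes per array were well above background. The 75th percentile of the intensity, a measure of how bright an array was, ran from 73.5 to 112 in C57BL/6 and from 50.1 to 76.1 in DBA/1. Levels are given as quantile-normalized log2 intensities, on which a difference of 1 is a doubling, and the number of arrays limits their precision.

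Hspa1b, the stress chaperone, stood higher in every DBA/1 mouse than in any C57BL/6 mouse. Its level was 8.10, 8.67, 8.12 and 8.19 in C57BL/6 mice 1 to 4. In DBA/1 mice 1 to 4 the level was 10.96, 10.76, 10.99 and 10.62. The strains did not overlap, and the lowest DBA/1 mouse lay 1.95 above the highest C57BL/6 mouse, while C57BL/6 mouse 2 stood above the other 3 mice of its strain, which lay close together. The means were 8.27 ± 0.27 (SD, n = 4) in C57BL/6 and 10.84 ± 0.17 (SD, n = 4) in DBA/1. The difference, DBA/1 minus C57BL/6, was 2.56 on the log2 scale with a standard error of 0.17, a level 5.92 times as high in DBA/1.

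Lta, the cytokine gene, followed the same order of strains. Its level was 3.99, 4.05, 3.76 and 3.36 in C57BL/6 mice 1 to 4. In the DBA/1 mice it was 6.32, 5.99, 6.05 and 5.57. Again the strains did not overlap, with a gap of 1.52 between the lowest DBA/1 and the highest C57BL/6 value, and mouse 4 was the lowest of its strain in both groups. The means were 3.79 ± 0.31 (SD, n = 4) in C57BL/6 and 5.98 ± 0.31 (SD, n = 4) in DBA/1. The difference was 2.19 on the log2 scale with a standard error of 0.21, a level 4.57 times as high in DBA/1. In whole brainstem, more cells that hold a transcript and more RNA per cell cannot be told apart.

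**Figure D1:**
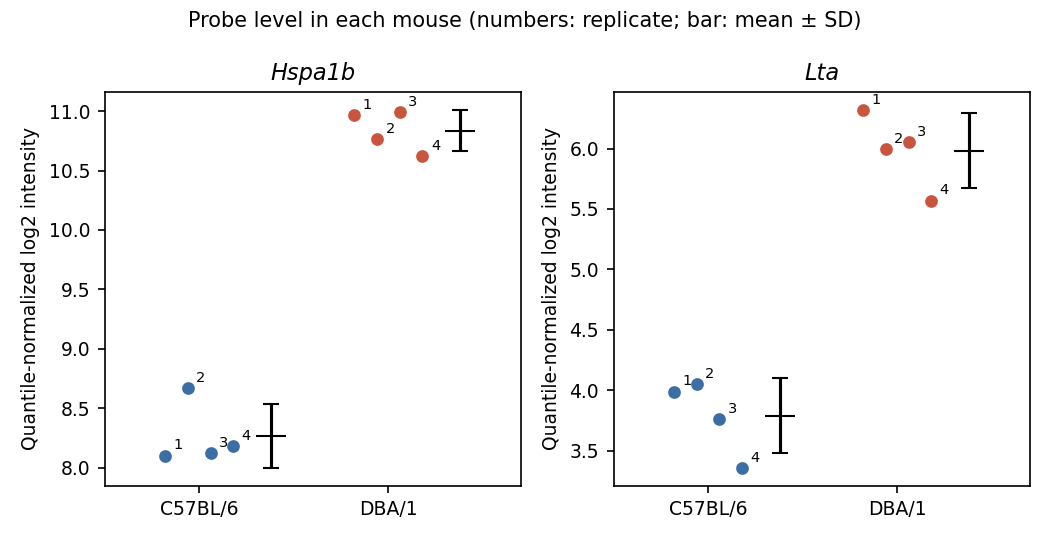
Quantile-normalized log2 intensity of the Hspa1b probe (left) and the Lta probe (right) in each of the 8 mice. Points are mice with their replicate number, and the black mark with bars is the mean ± SD of 4 mice. For both probes all DBA/1 mice lie above all C57BL/6 mice, with gaps of 1.95 for Hspa1b and 1.52 for Lta.

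Both probes met the criterion that had chosen them, at least a doubling together with an unadjusted p below 0.05, which 1431 of the 33179 probes tested with limma met, or 4.31%. Higher in DBA/1 were 359 of these, or 1.08% of the tested probes. With the p adjusted by the Benjamini-Hochberg method the shares were 3.73% in either direction and 0.904%, or 300 probes, higher in DBA/1, and both genes were among them. All DBA/1 values lay above all C57BL/6 values in 5.76% of the tested probes. As the same contrast chose both probes, nothing is read from these shares about them.

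The brightness behind the values differed widely between the genes' spots. Before normalization between arrays, the processed intensity of the Hspa1b spot was 290, 422, 336 and 443 in C57BL/6 mice 1 to 4 and 1684, 1522, 1257 and 1609 in the DBA/1 mice. The scanner software gave these a smaller relative error than any Lta spot. The median signal of the spot was 21.3 to 32.7 times its local background in C57BL/6 and 86.4 to 120 times in DBA/1, so that this probe was measured far above background in both strains.

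The Lta spot was dim. Its processed intensity was 16.5, 15.7, 16.0 and 14.8 in C57BL/6 mice 1 to 4, with errors of 14.9% to 18.5%. In the DBA/1 mice it was 71.1, 56.4, 44.2 and 48.2, with errors of 10.6% to 11.6%. The median spot signal was only 1.93 to 2.31 times the local background in C57BL/6 and 3.29 to 7.25 times in DBA/1. All 8 spots of each probe were nevertheless called well above background, none was saturated or marked as an outlier, and each probe had 1 spot per array.

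**Figure D2:**
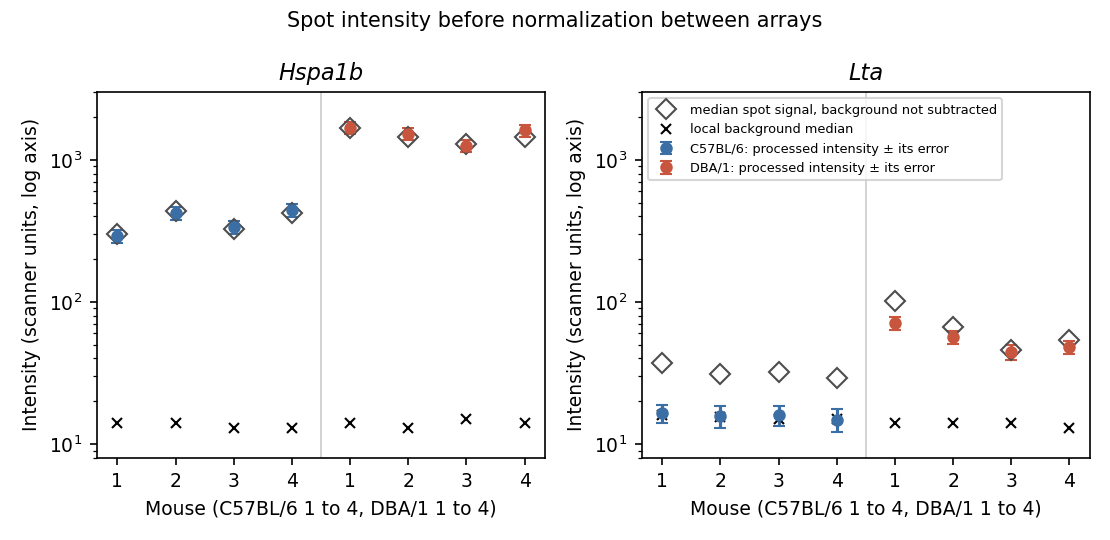
Intensity of the Hspa1b (left) and Lta (right) spots before normalization between arrays, in scanner units on a log axis, for C57BL/6 mice 1 to 4 and DBA/1 mice 1 to 4. Filled points are processed, background-subtracted intensities with the error given by the scanner software, open diamonds the median spot signal and crosses the local background. The Lta spot in C57BL/6 reads 14.8 to 16.5 and its median signal stays within 2.31 times the background, whereas Hspa1b lies far above its background on all arrays.

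Other treatments of low signal moved the genes unequally. With normexp, a model of signal and background that was run on the median spot signal and adds an offset of 50 before the log, the Hspa1b difference was 2.36 with a standard error of 0.16. The Lta difference fell to 0.70 with a standard error of 0.13, from a mean of 6.12 in C57BL/6 and 6.82 in DBA/1. The same offset added to the processed intensity alone gave 2.38 for Hspa1b and 0.83 for Lta, and normexp without an offset gave 2.55 and 1.69. The direction held for both genes in each of these, whereas the Lta difference was below 1 in both settings with the offset.

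**Figure D3:**
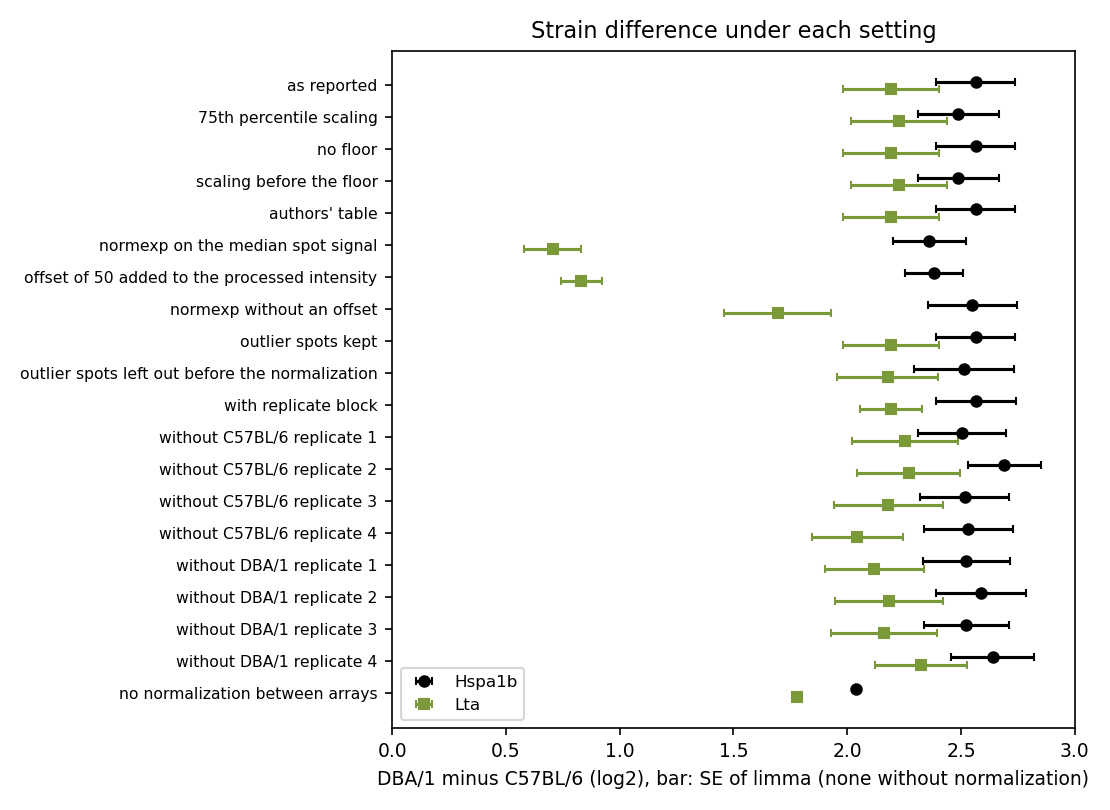
Difference between the strains, DBA/1 minus C57BL/6 on the log2 scale, for Hspa1b (circles) and Lta (squares) under each way of processing or with each mouse left out. Bars are the standard error from limma, and the setting without normalization has none. All values are above 0. Lta drops to 0.70 with normexp and to 0.83 with the offset alone, and both genes are lower without normalization between arrays, at 2.04 and 1.78.

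Variation among mice of a strain was of the size found across the array. In C57BL/6 the SD was 0.27 for Hspa1b and 0.31 for Lta, beside a median SD of 0.23 over the 33179 tested probes. In DBA/1 the SD was 0.17 for Hspa1b and 0.31 for Lta, beside a median of 0.29. In percent of the level the SDs came to 18.7% and 12.1% for Hspa1b in C57BL/6 and DBA/1, and to 21.7% and 21.5% for Lta.

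For Lta in C57BL/6, the spread was wider after the normalization than before it. The highest of the 4 intensities was 1.11 times the lowest before the arrays were normalized and 1.62 times after, and the SD on the log2 scale was 0.063 before and 0.31 after. The darkest and the brightest C57BL/6 array, those of mice 2 and 4 with 75th percentiles of 73.5 and 112, gave the highest and the lowest normalized Lta level. In DBA/1, mouse 4 had the brightest array, at 76.1, and again the lowest Lta level, but mice 1 and 2, with 66.3 and 66.0, lay above and below mouse 3, with 50.1. For Hspa1b in C57BL/6 the highest intensity was 1.53 times the lowest before and 1.48 times after. The part of array brightness in the variation of Lta was not tested.

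Whether the stress gene and the cytokine gene varied together was asked within strains, because across all 8 mice the strain difference alone would tie them. Each value was taken as its deviation from the mean of its strain. For Hspa1b the deviations were -0.17, 0.40, -0.15 and -0.09 in C57BL/6 mice 1 to 4 and 0.13, -0.07, 0.16 and -0.21 in DBA/1 mice 1 to 4. For Lta they were 0.20, 0.26, -0.03 and -0.43 in the C57BL/6 mice and 0.34, 0.01, 0.07 and -0.41 in the DBA/1 mice. In 6 of 8 mice both genes deviated to the same side, the exceptions being C57BL/6 mouse 1 and DBA/1 mouse 2.

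Pearson's r between the deviations was 0.60 over 8 mice, with p = 0.174 in a two-sided exact permutation test that reordered mice within strains in all 576 ways, where the smallest possible p was 0.00174. Spearman's rho on ranks within strains was 0.50, with p = 0.295 in the exact permutation test. A joint variation of the genes was thus not established with 4 mice per strain. This was the single relation tested, so no adjustment was made.

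The value depended on few mice. Without C57BL/6 mice 1 and 3, which were farthest from the median Hspa1b level, r was 0.93 over 6 mice with an exact permutation p of 0.0417, and rho was 0.82 with an exact permutation p of 0.208. That left 2 C57BL/6 mice, because the median of all levels falls between the strains, and the smallest possible p was 0.0208. Without C57BL/6 mouse 2 and DBA/1 mouse 3, which were farthest in terms of the deviation itself, r was 0.57 with an exact permutation p of 0.389, and rho was 0. Before any normalization between arrays r was 0.24 and rho was -0.10, with exact permutation p-values of 0.550 and 0.885.

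Many other probes showed as strong a relation. Of the 31870 other tested probes with values on all arrays, 9.05% had a larger r with Hspa1b than Lta had, and 18.6% had a larger r with Lta than Hspa1b had. Counting relations of either sign, the shares were 15.01% and 34.5%. These probes share the 8 arrays and their normalization with both genes.

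**Figure D4:**
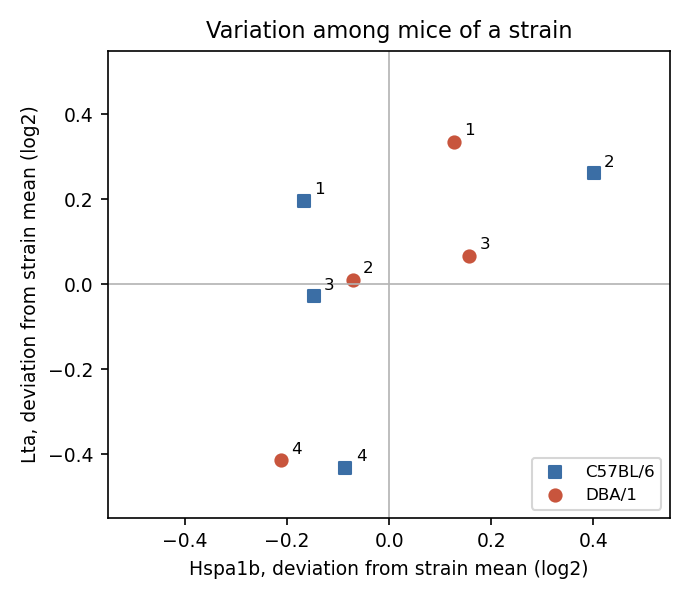
Deviation of each mouse from the mean of its strain, on the log2 scale, for Hspa1b (horizontal) and Lta (vertical). Squares are C57BL/6 and circles DBA/1 mice, with replicate numbers. Of the 8 mice, 6 lie in the lower left or upper right quadrant, and r is 0.60 with an exact permutation p of 0.174.

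Among genes near by, 9 further tested probes with a gene name lay within 300 kb of Hspa1b or Lta, of which 7 were higher and 2 lower in DBA/1. Names came from the study's lists of probes that met its criterion for a strain difference, so other probes of the region, including any for Hspa1a, Hspa1l, Ltb or Tnf, carried no name here and were not analysed. The counts therefore describe the listed probes and not the region.

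Gm10501 is a lncRNA listed as a natural antisense transcript of Hspa1l, the Hsp70 gene next to Hspa1a, and lies 17.7 kb from Hspa1b. Its level was 7.11, 7.32, 7.31 and 7.62 in C57BL/6 and 4.82, 5.63, 5.24 and 5.79 in DBA/1, a difference of -1.97 with a standard error of 0.22. Thus the named probe closest to Hspa1b was lower in DBA/1 without overlap, as were 7.63% of the tested probes. Ddx39b, which encodes an RNA helicase of mRNA splicing and export, lies 36.2 kb from Lta. Its level was 8.11, 8.14, 8.07 and 8.26 in C57BL/6 and 6.58, 6.83, 6.38 and 7.27 in DBA/1, a difference of -1.38 with a standard error of 0.20. Hence each gene had a listed neighbour whose level differed in the opposite direction.

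Farther along, the lncRNA AK017289, which lies 56.7 kb from Lta and is assigned to H2-L, was 3.94, 3.73, 2.85 and 2.67 in C57BL/6 and 5.97, 5.57, 5.65 and 6.14 in DBA/1. Its difference was 2.53 with a standard error of 0.29, and only 2 of its 4 C57BL/6 spots were well above background. The other 6 probes carried the names of the class I genes H2-D1, H2-L, H2-Q1, H2-Q3 and H2-Q6, which present peptides to T cells or are related to such genes. The differences of these probes ran from 1.19 to 2.11. The H2-Q1 and H2-Q3 probes and a further H2-D1 probe are listed as lncRNAs, that of H2-Q3 as intergenic.

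These class I probes varied far more among DBA/1 mice than Hspa1b or Lta did. The H2-Q3 lncRNA probe, for example, read 7.83, 8.27, 7.82 and 7.78 in C57BL/6 and 8.73, 8.57, 9.87 and 9.93 in DBA/1, with SDs of 0.23 and 0.73. That was the lowest DBA/1 SD of the 6 class I probes and the highest was 1.41, for H2-Q1. H2-Q6 and H2-L had values in 3 of 4 DBA/1 mice, since 1 spot of each was marked as an outlier. DBA/1 mice 3 and 4 were the high ones for H2-Q3, whereas for Lta mouse 4 was the lowest and for Hspa1b mouse 3 the highest and mouse 4 the lowest of the strain. Of the 9 neighbouring probes, all had a larger DBA/1 SD than Hspa1b and 8 a larger one than Lta.

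**Figure D5:**
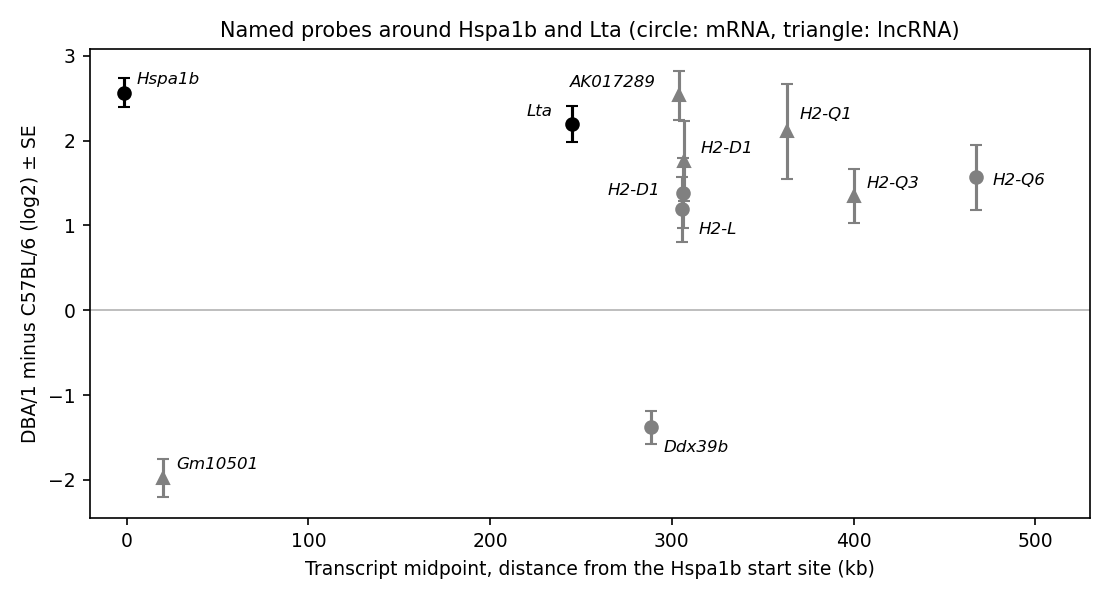
Difference between the strains, DBA/1 minus C57BL/6 on the log2 scale ± standard error, of Hspa1b, Lta (black) and the 9 named neighbouring probes (grey), against the distance of the transcript's midpoint from the Hspa1b start site in kb. Circles are mRNAs and triangles lncRNAs. Gm10501 and Ddx39b lie below 0, at -1.97 and -1.38, and the others above it.

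Other genes of the pathways were looked up in lists of 37 heat shock and chaperone genes and 29 lymphotoxin and TNF genes. Of the chaperone genes, Hspa1b was the only one with a named probe, so that no statement on the heat shock response beyond this gene can be made. Of the lymphotoxin and TNF genes, 4 had a named tested probe, and the 3 besides Lta were lower in DBA/1. The paper also lists Tnfsf12-Tnfsf13 of this family as lower in DBA/1, but it was not among the named tested probes here. Most probes that met the criterion were lower too, as only 359 of the 1431 were higher in DBA/1. Nothing is therefore read from this count about the pathway. The 3 genes were Tnfrsf1b, a TNF receptor to which lymphotoxin alpha binds, Tnfsf10, which encodes the death ligand TRAIL, and Map3k5, which encodes a stress kinase downstream of TNF receptors.

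Tnfrsf1b read 5.17, 5.41, 5.15 and 4.72 in C57BL/6 and 4.45, 3.76, 3.20 and 4.86 in DBA/1, a difference of -1.05 with a standard error of 0.33. Here the strains overlapped, as DBA/1 mouse 4 lay above C57BL/6 mouse 4, and 3 of the 4 DBA/1 spots were well above background. Tnfsf10 and Map3k5 were not well above background on any DBA/1 array. There, a stand-in level took the place of the measured one. It was the lowest level of probes well above background on each array, or the probe's own level where that was higher. Against it, Tnfsf10 was 1.44-fold and Map3k5 2.83-fold lower in DBA/1. As a probe not well above background can lie above the stand-in level, these folds are not strict bounds. They were not computed under the other treatments of low signal. These names too come from lists chosen on the strain difference.

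Markers of cells that could bring Lta into the tissue were looked up in the same way. Of 19 lymphocyte markers 3 were named, and the rest, the T cell receptor complex and B cell genes among them, were not analysed here. Zap70, a kinase of T and natural killer cells, read 4.10, 3.91, 4.55 and 3.84 in DBA/1 and was not well above background on any C57BL/6 array. Against the stand-in level described above it was 2.22-fold higher in DBA/1. Klra7, which encodes a natural killer cell receptor, was not well above background on any DBA/1 array. It was 1.57-fold lower there against the stand-in level, and neither fold is a strict bound. Gzmb, which encodes a cytotoxic granule protease, differed by -1.04 with a standard error of 0.32, with overlap between the strains. The 3 markers thus did not differ in one direction, and their part in the Lta difference was not tested.

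Of 10 markers of brainstem neurons 2 were named and both were higher in DBA/1. The rest were not analysed here, and the names again come from lists chosen on the strain difference. Across the array, 359 of the 1431 probes that met the criterion were higher in DBA/1. Nothing is read from the 2 about brainstem neurons as a whole. Tph2, the rate-limiting enzyme of serotonin synthesis in neurons, read 9.39, 10.52, 9.44 and 9.51 in C57BL/6 and 11.61, 11.43, 11.24 and 11.34 in DBA/1. The Slc6a4 probe, which is for a lncRNA at the serotonin transporter gene, differed by 1.59 with a standard error of 0.28, where only 1 of its 4 C57BL/6 spots was well above background. C57BL/6 mouse 2, the highest of its strain for Hspa1b, was also the highest of its strain for Tph2. It was the highest for Lta, Tnfrsf1b, Gzmb and most class I probes as well, but not for Gm10501, Ddx39b or Map3k5. What part the makeup of the sampled tissue had in these levels was not tested.

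Finally, the named probes whose profiles over the 8 arrays were most like those of Hspa1b and Lta were all lncRNAs on other chromosomes. Likeness was measured by the root mean square difference between profiles centred on their means, in log2 units, and rests mostly on the strain difference that chose all of these probes. For Hspa1b the closest were AA465934 on chromosome 11 at 0.14, AK136371 on chromosome 2 at 0.18 and AK018156 on chromosome 4 at 0.20, beside a median of 1.32 over the tested probes. For Lta they were AK136371 and AK083927 on chromosome 15, both at 0.18, and a further AA465934 probe at 0.18, beside a median of 1.15. Hspa1b and Lta differed from each other by 0.29, with 16 tested probes closer to Hspa1b and 21 closer to Lta.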

How the data were processed

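The authors scanned the arrays and deposited, per array, spot intensities from Agilent Feature Extraction 11.0.1.1 with background subtracted but no normalization between arrays. Their table of 60804 probes holds deposited log2 values, quantile-normalized in GeneSpring GX per the methods. Values here were computed from the scanner intensity. Intensities below 5 were set to 5, log2 values of all non-control spots were quantile-normalized, and spots marked as outliers were then left out. They were left out after and not before the normalization, since the values then matched the authors' table. Their number differed between arrays, from 197 to 914. With this order, which was chosen for that match, the values above the floor lay within 0.0104 of the authors' table. Probes well above background on at least 4 of 8 arrays and with values in both strains were fitted with limma 3.58.1 in R 4.3.3 (lmFit, eBayes). Permutation tests used Python 3.11.15 and numpy 2.4.6. The code was tested on simulated data.

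The probes and the lists of genes were chosen with earlier results of these data known. Genes are named where they are the 2 chosen ones, lie within 300 kb of either, belong to the lists of chaperones, lymphotoxin and TNF genes or cell type markers, or are among the 3 named probes with the closest profile. Names, positions and probe sequences came from the study's supplementary lists, which name 1194 tested probes. Gene positions and promoters are RefSeq's for GRCm38.p6, and 1 promoter row matched each gene. The paper states that mice shared cages but not which ones did. The labels do not say whether samples of a strain came from separate litters or cages. The spread between mice and the difference between strains may therefore hold such effects. The alternatives are the authors' table, scaling to the 75th percentile, also before the floor was set, no floor, normexp on the median spot signal with an offset of 50, outlier spots kept, other filters and fold changes, the methods' unpaired test, the replicate number as a block, and each mouse left out. Added after seeing the data were outlier spots left out before the normalization, no normalization between arrays, the offset added to the processed intensity, normexp without an offset, and the covariation of differences between same-numbered mice.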

Additional observations from a re-analysis of the deposited data

Results flagged for a closer look

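The Hspa1b level of C57BL/6 mouse 2, at 8.67, was flagged because it stood far from the other 3 mice of the strain, at 8.10 to 8.19. Its gap to the nearest was 0.856 of the range of the strain, above Dixon's critical value for 4 samples. Of 4 such groups examined (Hspa1b and Lta in each strain) it was the only one past that value, and chance alone passes about 1 group in 20. Without this mouse the C57BL/6 SD of Hspa1b was 0.04 in place of 0.27, and the strain difference was 2.69. Its array had the lowest 75th percentile of the strain, 73.5, and the most outlier spots, 914. Its Tph2 level, 10.52, was also the highest of its strain. So were its levels of Lta, Tnfrsf1b, Gzmb and most class I probes, but not those of Gm10501, Ddx39b or Map3k5. The part of these in the value was not tested.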

How the results depend on the processing

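Without any normalization between arrays, an alternative chosen after seeing the data, the differences were 2.04 for Hspa1b and 1.78 for Lta, where the 75th percentile itself differed by -0.45 (DBA/1 minus C57BL/6, log2). The Lta difference was 0.70 with normexp, 0.83 with the offset added to the processed intensity and 1.69 with normexp without an offset, the last pair added after seeing the data. Apart from these values, the difference ran from 2.36 to 2.69 for Hspa1b and from 2.04 to 2.32 for Lta over the settings. Leaving out each mouse gave 2.50 to 2.69 for Hspa1b, 2.04 to 2.32 for Lta, and r of 0.46 to 0.78 for their covariation. No setting brought the exact permutation p of r under 0.05 apart from leaving out the 2 mice farthest from the median Hspa1b level.

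The counts of probes called by unadjusted and adjusted p, 1431 and 1236, became 369 and 326 with normexp, 384 and 352 with the offset alone, 680 and 621 with probes well above background on all 8 arrays, 3389 and 1897 at a fold change of 1.5, and 577 and 561 at a fold change of 3. Leaving out a mouse gave 1127 to 1589 and 812 to 1310, the lowest adjusted count being without C57BL/6 mouse 2. With the replicate block the counts were 1438 and 1285, and the differences remained 2.56 and 2.19 with standard errors of 0.18 and 0.14. Deviations of same-numbered mice correlated at 0.37, 0.02, 0.13 and 0.31 over tested probes for numbers 1 to 4, against -0.28 to 0.11 for the 12 pairs of other numbers. As 1 of the 4 was under 0.1, the numbers were not taken to pair the mice, although 6 of 8 mice correlated best with their own number, a hint from the data and not the design. Over the differences between same-numbered mice, added after seeing the data, r between Hspa1b and Lta was 0.95, with an exact permutation p of 0.0833, where the smallest possible p was 0.0417.

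The low signal of Lta in C57BL/6, at most 2.31 times the background, limits how well the size of its difference is known. That size depended on how low signal was treated, with 2.19 as reported and 0.70 with normexp. The 4 mice per strain limit the test of covariation.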
